A study of Mus musculus with 6 samples.

Results

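The 6 fatty acid omega-hydroxylase genes Cyp4a10, Cyp4a12a, Cyp4a12b, Cyp4a14, Cyp4a31 and Cyp4a32 and the 4 acyl-CoA thioesterase genes Acot1, Acot2, Acot3 and Acot4 were examined in mouse liver. They were chosen by gene name as genes known to respond to PPAR-alpha or to stand beside ones that do, and they are 10 of the 29734 genes in the expression table. All 10 were found there. The members were chosen with earlier results of these data known, so their counts and medians below are descriptions and not independent tests. RNA was sequenced from the liver of male mice that started a Western diet at 8 weeks of age and stayed on it for 20 weeks. Of the 6 libraries, 3 came from Prdx1C52S mice (replicates 1, 2 and 4) and 3 from wild-type mice (WT, replicates 6, 8 and 9). Peroxiredoxin 1, the product of Prdx1, is a peroxidase that removes hydrogen peroxide, and the Prdx1C52S allele puts a serine in the place of a cysteine. Diet, sex and tissue were shared by both groups, with no chow-fed group among the samples used here. Strain and zygosity are not given by the labels. The labels do not say that each library is a separate animal, so p-values measure only the spread between these libraries.

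PPAR-alpha is a nuclear receptor that binds fatty acids, pairs with RXR on DNA and switches on the genes of fatty acid burning in hepatocytes. Cyp4a enzymes are cytochromes P450 of the endoplasmic reticulum that add a hydroxyl group to the far (omega) end of a fatty acid, the first step toward dicarboxylic acids that peroxisomes then shorten. Acyl-CoA thioesterases release the free fatty acid from its coenzyme A ester: Acot1 in the cytosol, Acot2 in mitochondria, and Acot3 and Acot4 in peroxisomes. Cyp4a10 and Cyp4a14 are classic PPAR-alpha targets of mouse liver, whereas Cyp4a12a is a male-predominant gene that depends on androgen and pulsatile growth hormone.

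The members lie in 2 clusters, and some are near-identical copies, which matters for how reads can be assigned to them. The following stretches of coding sequence (GRCm38, plus strand of chromosome 4 except Cyp4a14, each inside a single exon) show where the members can be told apart. They were chosen as the stretches with the most differing positions among Cyp4a10, Cyp4a31 and Cyp4a32, in the Cyp4a12 pair, or between Acot1 and Acot2. These stretches are therefore not typical of the whole coding sequence. Each is 60 bases long and printed in the direction of transcription, with capitals at the bases that differ from the first gene listed in its set. For the relatives of Cyp4a10 the stretch is in exon 2, at chr4:115519642-115519701 in Cyp4a10, chr4:115565022-115565081 in Cyp4a31, chr4:115602272-115602331 in Cyp4a32 and, on the minus strand, chr4:115494959-115495018 in Cyp4a14.
Cyp4a10: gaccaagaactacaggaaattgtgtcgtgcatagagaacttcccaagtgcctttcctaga
Cyp4a31: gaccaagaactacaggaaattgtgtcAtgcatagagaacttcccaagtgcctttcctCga
Cyp4a32: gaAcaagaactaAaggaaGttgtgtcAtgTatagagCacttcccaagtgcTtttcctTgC
Cyp4a14: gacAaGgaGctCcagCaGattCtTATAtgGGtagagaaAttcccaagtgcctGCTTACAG

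Here Cyp4a31 differed from Cyp4a10 at 2 bases, Cyp4a32 at 9 and Cyp4a14 at 22. Over the whole coding sequence Cyp4a10 was identical to Cyp4a31 at 96.6% of aligned bases and to Cyp4a32 at 97.2%, but to Cyp4a14 at 75.2%. The closest copies were Cyp4a12a and Cyp4a12b, 98.5% identical with 23 differing bases of 1524. The stretch in exon 6 holds 4 of those differences, at chr4:115326628-115326687 in Cyp4a12a and chr4:115432881-115432940 in Cyp4a12b.
Cyp4a12a: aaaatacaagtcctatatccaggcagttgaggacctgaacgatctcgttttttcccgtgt
Cyp4a12b: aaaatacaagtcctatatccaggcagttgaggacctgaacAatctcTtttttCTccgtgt

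On chromosome 12, Acot1 and Acot2 were 95.3% identical over their aligned coding bases, Acot1 and Acot3 83.9%, and Acot1 and Acot4 72.8%. The stretches for comparison are in exon 3 (exon 4 of Acot3) on the plus strand, at chr12:84016942-84017001 in Acot1, chr12:83992664-83992723 in Acot2, chr12:84058583-84058642 in Acot3 and chr12:84043353-84043412 in Acot4.
Acot1: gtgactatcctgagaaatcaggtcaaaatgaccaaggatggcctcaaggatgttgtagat
Acot2: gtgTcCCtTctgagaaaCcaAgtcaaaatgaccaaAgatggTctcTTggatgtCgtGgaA
Acot3: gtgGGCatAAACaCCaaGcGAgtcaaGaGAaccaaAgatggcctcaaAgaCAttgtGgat
Acot4: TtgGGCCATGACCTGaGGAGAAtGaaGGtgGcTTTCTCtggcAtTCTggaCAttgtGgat

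A read of 150 bases was taken as ambiguous where the same 150 bases occur in another member's transcripts. That held for 25.6% of such windows in Cyp4a12a and 25.9% in Cyp4a12b, for 12.4% in Acot1 and 10.2% in Acot2, for 7.97% in Cyp4a32, 4.34% in Cyp4a10 and 4.19% in Cyp4a31, and for 1.65% in Acot3. Cyp4a14 and Acot4 shared 0 windows with another member. The values of Cyp4a12a and Cyp4a12b, and of Acot1 and Acot2, are therefore less certain singly than as sums, since the labels do not say how shared reads were split.

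Depth was 60.3 to 76.2 M estimated counts per library, or 15.1 to 19 M fragments at about 4 counts per fragment. Levels are FPKM, that is, fragments per kilobase of transcript and per mapped fragments of the library. Log2 fold changes are Prdx1C52S minus WT from edgeR's quasi-likelihood test with TMM scaling, so that equal FPKM in both groups corresponds to a log2 fold change of 0.30. The hepatocyte marker Alb stood between 18116 and 22278 FPKM in every library. WT 8 stood apart: its mean correlation with the other libraries was 0.937 against 0.958 to 0.966 elsewhere. It had 33.3 FPKM of the pericentral enzyme Glul (253 to 347 elsewhere), 2.56 of the Kupffer cell gene Clec4f (29.3 to 46.0 elsewhere) and 30.9 of the bile duct keratin Krt19 (0.507 to 3.97 elsewhere). Summed markers of bile duct cells ran from 63.8 to 133 FPKM in Prdx1C52S and from 233 to 854 in WT, those of macrophages from 215 to 238 and from 386 to 475, and those of hepatocytes from 34758 to 36555 and from 34485 to 35519. Of these lists, 10 of 10 bile duct markers, 6 of 10 macrophage markers and 4 of 12 hepatocyte markers had negative fold changes, and none was at 0 in all libraries. Sums for T and NK cells (1.9 to 2.45 against 4.44 to 10.1), stellate cells (35.6 to 49.2 against 58.6 to 94.1) and neutrophils (4.86 to 17.3 against 19.9 to 24.5) were also below WT in every Prdx1C52S library, and those for red blood cells ran from 252 to 1085 against 129 to 278. Of 8 stellate markers, 6 had negative and 2 positive fold changes. Sums for B cells (14.0 to 26.8 against 11.8 to 20.6) and endothelial cells (51.7 to 58.6 against 31.0 to 64.6) overlapped between the groups. The sum for adipocytes, 29.5 to 116 against 13.8 to 25.8, was above WT in every Prdx1C52S library, but it rests on few genes. Of 6 adipocyte markers 4 were found, and 2 of these stayed under 0.1 FPKM in every library. Of the 2 tested, 1 had a positive fold change and 1, Fabp4, a negative one. Among single genes tested, 36.7% had every Prdx1C52S library below WT in FPKM and 6.09% above. The part of these cell types in the results below was not tested, and in bulk tissue fewer cells of a type and less RNA per cell cannot be told apart. The transcript of Prdx1 itself was at 247 ± 12.2 FPKM in Prdx1C52S and 246 ± 20.7 in WT (SD, n = 3). The allele is named for a changed residue and need not change the amount of transcript, so these values are no check of the labels. A second edgeR fit left out WT 8, and its log2 fold changes are given for the members and their sums and as medians for the gene lists.

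The 6 Cyp4a transcripts together stood at 287 ± 29.8 FPKM in the Prdx1C52S livers and at 151 ± 81.9 in WT (SD, n = 3), and the single members differed in size and order of libraries. Summed Cyp4a FPKM was 319.8, 281.5 and 261.0 in Prdx1C52S 1, 2 and 4 and 217.8, 59.4 and 174.6 in WT 6, 8 and 9. The groups did not overlap, and the exact permutation test gave a two-sided p of 0.1, the smallest that 3 against 3 allows. The 4 Acot transcripts together did not separate, at 22.7 ± 9.82 against 19.4 ± 8.23 FPKM (exact permutation p = 0.7). All 10 members passed the filter on low counts, and 0 of 10 passed an edgeR adjusted p of 0.05, as did 0% of the 18931 genes tested. DESeq2 also called 0 of the members, beside 16.5% of all genes, and so did edgeR without WT 8, beside 4.64%. At an unadjusted edgeR p under 0.05, 2 members (Cyp4a10 and Cyp4a14) were higher in Prdx1C52S, beside 11.5% of all genes, and 0 were lower, beside 14.8%. Log2 fold changes were positive for 8 of 10 members, beside 47% of all genes, and their median was 0.75, beside -0.03 over all genes tested. Without WT 8 the median was 0.40, beside -0.01, with 7 of 10 positive, beside 48.9%.

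**Figure D1:**
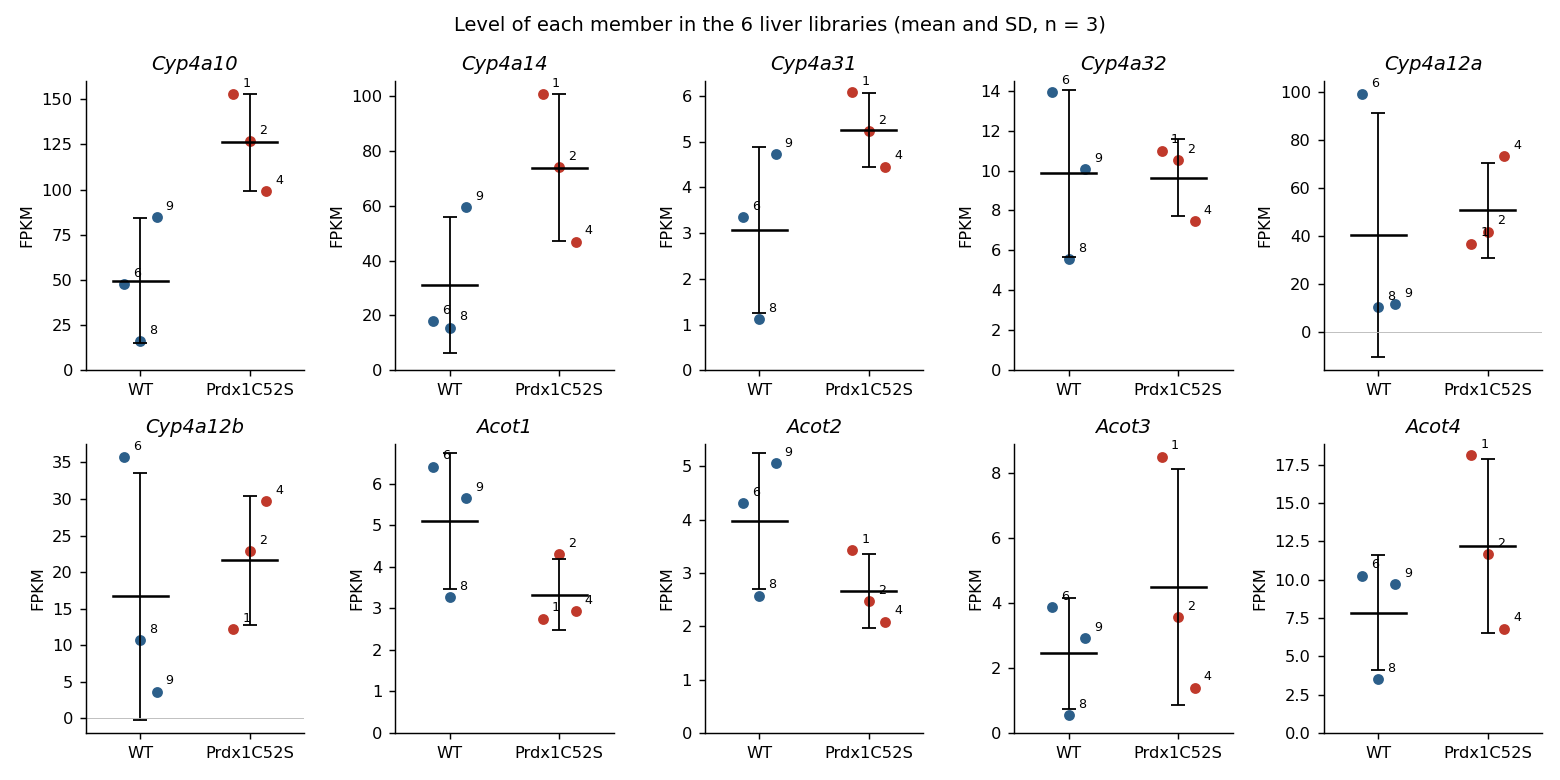
FPKM of each member (linear axes) in the 3 WT and 3 Prdx1C52S libraries; points are libraries with their replicate number, horizontal bars means and vertical bars SD. Cyp4a10 is the member whose Prdx1C52S libraries all lie above the WT libraries; WT 8 is the lowest library in 7 of the 10 panels.

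Cyp4a10 had the highest mean FPKM of the members in both groups, although Cyp4a12a exceeded it in WT 6. It is a main inducible omega-hydroxylase of mouse liver and lies on chromosome 4 from 115518264 to 115533649 (plus strand, 13 exons). Its level was 152.9, 126.7 and 99.1 FPKM in Prdx1C52S 1, 2 and 4 and 47.6, 16.1 and 84.9 in WT 6, 8 and 9. Every Prdx1C52S library lay above every WT library. Cyp4a10 was the single member for which that held, beside 6.09% of all genes tested, and no member had all Prdx1C52S libraries below WT, beside 36.7%. The means were 126 ± 26.9 and 49.5 ± 34.4 FPKM (SD, n = 3), a log2 fold change of 1.56 (SE 0.60; edgeR adjusted p = 0.166). The spread within WT, 5.27-fold from its lowest to its highest library, was larger than the ratio of the means, 2.55. Without WT 8 the log2 fold change of Cyp4a10 was 1.12 (SE 0.31, edgeR adjusted p = 0.125).

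Cyp4a14, the neighbouring inducible omega-hydroxylase (115486200 to 115496142, minus strand), followed Cyp4a10 closely. It was at 100.7, 74.2 and 46.9 FPKM in Prdx1C52S 1, 2 and 4 and at 17.9, 15.6 and 59.6 in WT 6, 8 and 9. WT 9 lay above Prdx1C52S 4, so the groups overlapped. The means were 74.0 ± 26.9 and 31.0 ± 24.7 FPKM, with a log2 fold change of 1.48 (SE 0.61; edgeR adjusted p = 0.184). A single WT library moved this value by more than 1.5 times: it was 2.47 without WT 9 (edgeR adjusted p = 0.0503) and 1.12 without WT 8 (edgeR adjusted p = 0.465).

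Cyp4a31 and Cyp4a32 are close relatives of Cyp4a10 in the same cluster (115563649 to 115579015 and 115600969 to 115621602, both plus strand), but their values differed from each other. Cyp4a31 was at 6.08, 5.23 and 4.46 FPKM in Prdx1C52S 1, 2 and 4 and at 3.36, 1.12 and 4.73 in WT 6, 8 and 9. As in Cyp4a14, WT 9 lay among the Prdx1C52S libraries, and the difference was 0.997 on the log2 scale (SE 0.53, edgeR adjusted p = 0.277) and 0.57 without WT 8 (edgeR adjusted p = 0.129). Without WT 9 it was 1.499 (edgeR adjusted p = 0.122). Cyp4a32 was at 10.995, 10.51 and 7.45 FPKM in Prdx1C52S and at 13.95, 5.57 and 10.07 in WT. Its groups overlapped fully, and its log2 fold change of 0.21 (SE 0.38, edgeR adjusted p = 0.761) turned to -0.12 without WT 8, to -0.04 with library totals in place of TMM and to -0.10 in voom. Since some read-length windows are shared between them, the counts of Cyp4a10, Cyp4a31 and Cyp4a32 were also summed. The sum had a log2 fold change of 1.43 (SE 0.56, edgeR adjusted p = 0.172), which DESeq2 put at 1.44 with an adjusted p of 0.0228 and edgeR without WT 8 at 0.99 with an adjusted p of 0.0987.

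Cyp4a12a and Cyp4a12b, the male-predominant pair (115299046 to 115332815 and 115411624 to 115439034, plus strand), had another order of libraries. Cyp4a12a was at 36.8, 41.9 and 73.4 FPKM in Prdx1C52S 1, 2 and 4 and at 99.2, 10.3 and 11.7 in WT 6, 8 and 9. WT 6 was the highest library of all and the other WT libraries the lowest. The log2 fold change of 0.54 (SE 0.92, edgeR adjusted p = 0.742) therefore depended on which WT library was present: it was 2.53 without WT 6 (edgeR adjusted p = 0.127) and 0.07 without WT 8 (edgeR adjusted p = 0.983). Cyp4a12b was at 12.3, 22.9 and 29.7 FPKM in Prdx1C52S and at 35.8, 10.7 and 3.65 in WT. Again WT 6 was highest, and the difference was 0.63 on the log2 scale (SE 0.79, edgeR adjusted p = 0.648), 2.00 without WT 6, 0.33 without WT 8 and 0.16 without WT 9. Summing the pair, which removes the question of how shared reads were split, gave 0.57 (edgeR adjusted p = 0.71) and 2.35 without WT 6 (edgeR adjusted p = 0.127). The sum was lower without any of 3 other libraries, at 0.14 without WT 8, 0.13 without WT 9 and 0.23 without Prdx1C52S 4.

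**Figure D2:**
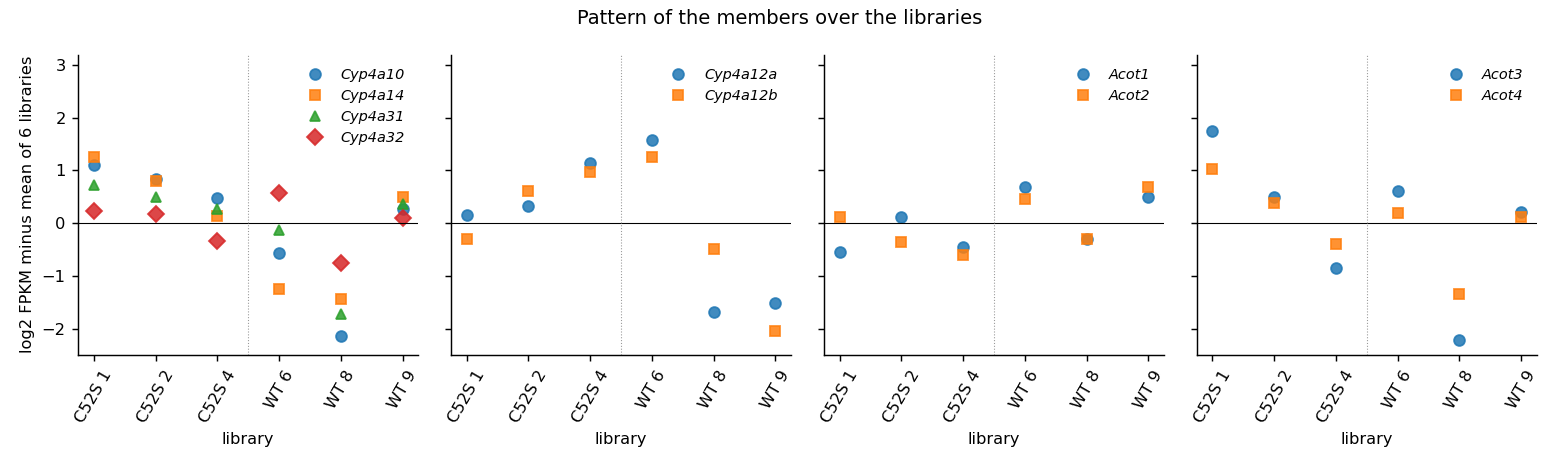
Log2 FPKM of each member minus its own mean over the 6 libraries (vertical axis) by library (horizontal axis); the dotted line parts Prdx1C52S from WT. Cyp4a10, Cyp4a14 and Cyp4a31 are all highest in Prdx1C52S 1 (C52S 1 on the axis) and lowest in WT 8, the Cyp4a12 pair peaks in WT 6, and Acot3 and Acot4 are highest in Prdx1C52S 1 and lowest in WT 8.

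Among the thioesterases the peroxisomal and the other members had fold changes of opposite sign, none of which passed the adjusted threshold. Acot4, the peroxisomal succinyl-CoA thioesterase (chromosome 12, 84038379 to 84048601, plus strand), was at 18.1, 11.6 and 6.80 FPKM in Prdx1C52S 1, 2 and 4 and at 10.3, 3.53 and 9.73 in WT 6, 8 and 9. The groups overlapped, with a log2 fold change of 0.86 (SE 0.53, edgeR adjusted p = 0.343) and 0.47 without WT 8. Acot3, a peroxisomal thioesterase of long-chain acyl-CoA (84052144 to 84060402, plus strand), was at 8.50, 3.57 and 1.39 FPKM in Prdx1C52S and at 3.88, 0.546 and 2.92 in WT. Its spread within Prdx1C52S was wide, and the log2 fold change of 1.08 (SE 0.86, edgeR adjusted p = 0.465) was 0.25 without Prdx1C52S 1 and 0.58 without WT 8. Summed, Acot3 and Acot4 had a log2 fold change of 0.89 (edgeR adjusted p = 0.361), which was 0.49 without WT 8 and 0.45 without Prdx1C52S 1.

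Acot1, the cytosolic enzyme (84009490 to 84018371, plus strand), was at 2.76, 4.32 and 2.93 FPKM in Prdx1C52S 1, 2 and 4 and at 6.42, 3.27 and 5.66 in WT 6, 8 and 9. WT 8 lay inside the Prdx1C52S range and the other WT libraries above it. The difference was -0.36 on the log2 scale (SE 0.34, edgeR adjusted p = 0.536) and -0.66 without WT 8 (edgeR adjusted p = 0.122), but -0.13 without WT 6. Acot2, the mitochondrial enzyme (83987861 to 83993873, plus strand), was at 3.43, 2.47 and 2.09 FPKM in Prdx1C52S and at 4.31, 2.57 and 5.06 in WT. Here too WT 8 alone overlapped the Prdx1C52S libraries, and the difference was -0.33 on the log2 scale (SE 0.34, edgeR adjusted p = 0.571) and -0.63 without WT 8 (edgeR adjusted p = 0.137), but -0.07 without WT 9. The summed counts of Acot1 and Acot2 had a log2 fold change of -0.36 (edgeR adjusted p = 0.509), and without WT 8 they were lower in Prdx1C52S by this test, at -0.65 (edgeR adjusted p = 0.048). With the other single libraries left out it was as near to 0 as -0.16 and not called. In that 5-library fit, Acot1 and Acot2 each had an unadjusted edgeR p under 0.05 toward lower, beside 11.1% of all genes, and Cyp4a10 and Cyp4a31 toward higher, beside 11.2%.

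An antisense transcript, 4732463B04Rik (chromosome 12, 84039469 to 84053807, minus strand), overlaps both Acot4 and Acot3. It was at 1.49, 1.33 and 0.64 FPKM in Prdx1C52S 1, 2 and 4 and at 0.74, 0.52 and 1.09 in WT 6, 8 and 9. The libraries were made with strand marking, but the labels do not say whether counting used the strand, so reads of the pair may not have been told apart.

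**Figure D3:**
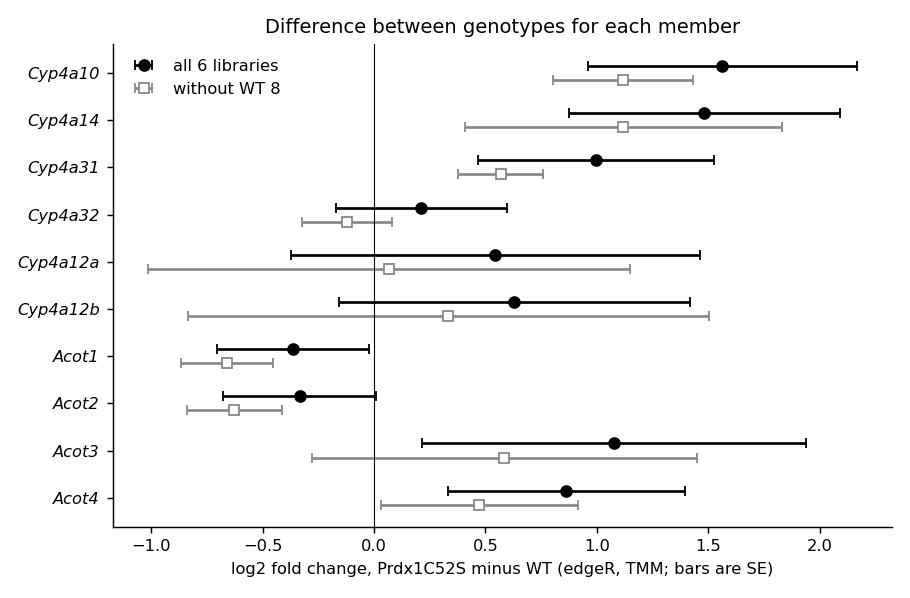
Log2 fold change of each member (horizontal axis, Prdx1C52S minus WT, edgeR with TMM scaling; bars are SE), with all 6 libraries (filled circles) and without WT 8 (open squares). Cyp4a10 and Cyp4a14 lie farthest to the right at 1.56 and 1.48, Acot1 and Acot2 lie below 0 in both fits, and 9 of the 10 members keep their sign without WT 8, Cyp4a32 being the exception.

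The make-up of each family was compared as shares of its summed FPKM, which do not depend on library scaling. Acot4 made up 55.2%, 52.9% and 51.5% of Acot FPKM in Prdx1C52S 1, 2 and 4 and 41.3%, 35.6% and 41.6% in WT 6, 8 and 9. The groups did not overlap, and the means of 53.2% ± 1.91 and 39.5% ± 3.40 (SD, n = 3) differed by more than the spread within either group. The exact permutation p was 0.1, the smallest possible with 3 against 3, and 0.233 after Benjamini-Hochberg adjustment over the 14 shares compared. Those 14 include sums of members, and shares within a family depend on each other. Acot1 and Acot2 together took 29.2% ± 9.67 of Acot FPKM in Prdx1C52S and 49.3% ± 8.44 in WT, without overlap (exact permutation p = 0.1). Since the shares add up to the whole, this mirrors the summed share of Acot3 and Acot4 and is no separate result. Acot3, at 17.6% ± 7.76 and 11.2% ± 5.17, overlapped (exact permutation p = 0.4).

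Within the Cyp4a family, Cyp4a32 was the member whose share separated the groups, with 3.44%, 3.73% and 2.85% in Prdx1C52S 1, 2 and 4 and 6.41%, 9.38% and 5.77% in WT 6, 8 and 9 (exact permutation p = 0.1, adjusted 0.233). Its own level was 9.65 ± 1.92 and 9.86 ± 4.197 FPKM, so the lower share went with a higher sum of the other members. The Cyp4a12 pair took 15.4%, 23.0% and 39.5% of Cyp4a FPKM in Prdx1C52S and 62.0%, 35.3% and 8.79% in WT, the widest range of any share. Cyp4a10 and Cyp4a14 together ran the other way, with 79.3%, 71.4% and 55.9% in Prdx1C52S and 30.1%, 53.4% and 82.7% in WT, and overlapped (exact permutation p = 0.6).

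**Figure D4:**
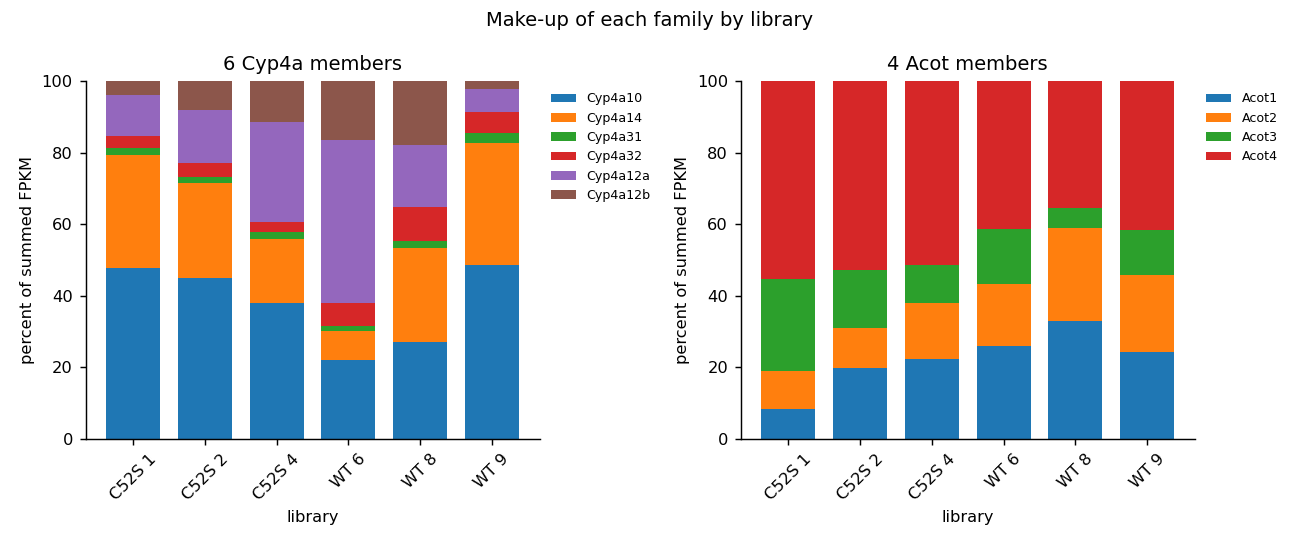
Stacked bars of each member's percent of the summed FPKM of its family (vertical axis, from 0 to the whole) in each library, with Cyp4a members on the left and Acot members on the right. The Acot4 part is above 50% in every Prdx1C52S library and below 42% in every WT library; the sum of the Cyp4a12a and Cyp4a12b parts is widest in WT 6 and narrowest in WT 9.

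In order of mean FPKM, the Prdx1C52S libraries ran Cyp4a10, Cyp4a14, Cyp4a12a, Cyp4a12b, Acot4, Cyp4a32, Cyp4a31, Acot3, Acot1 and Acot2. Neighbours in that order differed by more than the larger of their SDs for Cyp4a10 over Cyp4a14, Cyp4a12a over Cyp4a12b, Cyp4a12b over Acot4 and Cyp4a32 over Cyp4a31, and for no other neighbours. The WT order was Cyp4a10, Cyp4a12a, Cyp4a14, Cyp4a12b, Cyp4a32, Acot4, Acot1, Acot2, Cyp4a31 and Acot3, and there no neighbours differed beyond the larger SD. Acot1 and Acot2 thus stood above Acot3 in the mean of WT and below it in that of Prdx1C52S, although Acot3 exceeded Acot1 in 1 of the 3 Prdx1C52S libraries.

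Across the 6 libraries Cyp4a14 tracked Cyp4a10 with a Pearson r of 0.94 and Cyp4a31 with 0.89 on log2 CPM, while its r with Cyp4a12a was 0.24. Cyp4a12a tracked Cyp4a12b with 0.90. These are descriptions over 6 points that share their library preparation, genotype groups and WT 8, with no test. Without WT 8 the values were 0.96, 0.98, -0.44 and 0.98. Among 10458 genes of at least 1 FPKM, those most like Cyp4a14 were Eny2, Dtd2 and Mtx2 (each 0.99). Without WT 8 these stood at ranks 17, 23 and 24, and their FPKM varied little, Eny2 from 7.60 to 9.27. In FPKM, Eny2 and Dtd2 were highest in WT 8, where Cyp4a14 was lowest; log2 CPM, unlike FPKM, also holds the TMM factor of each library (1.28 in WT 8, 0.883 to 1.04 elsewhere). Those most like Cyp4a12a were the major urinary protein genes Mup15 (0.98) and Mup19 (0.97), members of a male-predominant liver family, and Vps26b (0.97), at ranks 21, 27 and 25 without WT 8. Mup15 was at 1084 FPKM in WT 6, the library highest in Cyp4a12a, and at 7.93 and 31.4 in WT 8 and WT 9. For Acot1 the closest were Gbp7 (0.98), Rnaset2a (0.97) and Mir703 (0.97), at ranks 32, 36 and 66 without WT 8.

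The receptor and its other targets were read beside the members from lists of known genes. Ppara itself was at 32.0, 28.6 and 23.8 FPKM in Prdx1C52S 1, 2 and 4 and at 28.2, 16.6 and 29.1 in WT 6, 8 and 9, with overlapping groups and a log2 fold change of 0.44 (edgeR adjusted p = 0.372), or 0.16 without WT 8 (edgeR adjusted p = 0.488). Of 16 genes for PPARs, their RXR partners and cofactors, 0 passed the adjusted threshold, 8 had positive and 8 negative fold changes, and the median was 0.00 (-0.05 without WT 8). Among those with the smallest p were the receptors Ppard (-0.34) and Pparg (0.64). No gene of any list below passed the adjusted threshold in edgeR with all 6 libraries, so counts at an unadjusted p under 0.05 are given. Over all genes tested, 11.5% were higher and 14.8% lower at that p, and 47% had positive fold changes.

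Of 15 peroxisomal targets, 15 had positive fold changes (median 0.46). At an unadjusted edgeR p under 0.05, 6 were higher, beside 11.5% of all genes, and none lower, beside 14.8%. Without WT 8, 13 of 15 were positive and the median was 0.23. Ehhadh, the bifunctional enzyme of peroxisomal beta-oxidation, was at 125 ± 14.5 FPKM in Prdx1C52S and 94.1 ± 11.7 in WT (log2 fold change 0.70, edgeR adjusted p = 0.0875), and the thiolase Acaa1b at 1184 ± 92.2 and 773 ± 121 (0.88, edgeR adjusted p = 0.0965). Both, and the carnitine octanoyltransferase gene Crot (0.77), separated the groups in FPKM with Prdx1C52S above, as did 6.09% of all genes tested. Also without WT 8, 4 of the 15 passed an edgeR adjusted p of 0.05 toward higher, among them Ehhadh, Crot and Acaa1b, beside 2.7% of all genes. Such calls were not particular to this list. The same fit called 4 higher and 1 lower of 17 mitochondrial targets, and 4 higher and 4 lower of 21 other targets. It also called 2 of 9 enzymes that work with Cyp4a proteins and 6 of 12 pericentral genes, all higher.

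Of 17 mitochondrial targets, 14 were positive (median 0.45). At an unadjusted edgeR p under 0.05, 8 were higher, beside 11.5% of all genes, and 1 lower, beside 14.8%. Without WT 8, 13 of 17 were positive and the median was 0.22. The acyl-CoA dehydrogenase gene Acadm (0.53) and the electron-transfer gene Etfdh (0.71) were on the positive side. Ucp2, an uncoupling protein gene also expressed in immune cells, was on the negative side at 6.37 ± 1.01 against 14.8 ± 1.09 FPKM (-0.92, edgeR adjusted p = 0.0553). Cpt1a, the carnitine palmitoyltransferase of the outer membrane, had a log2 fold change of -0.01, and -0.28 without WT 8. Of 21 further targets, 15 were positive with a median of 0.28, and 12 with a median of 0.18 without WT 8. With all libraries, 5 were higher at an unadjusted edgeR p under 0.05, beside 11.5% of all genes, and 3 lower, beside 14.8%. The 3 with the smallest p were all negative: Fabp4 (-0.88), Slc27a1 (-1.53) and Txnip (-1.19). Fabp4 is also a gene of adipocytes and macrophages.

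**Figure D5:**
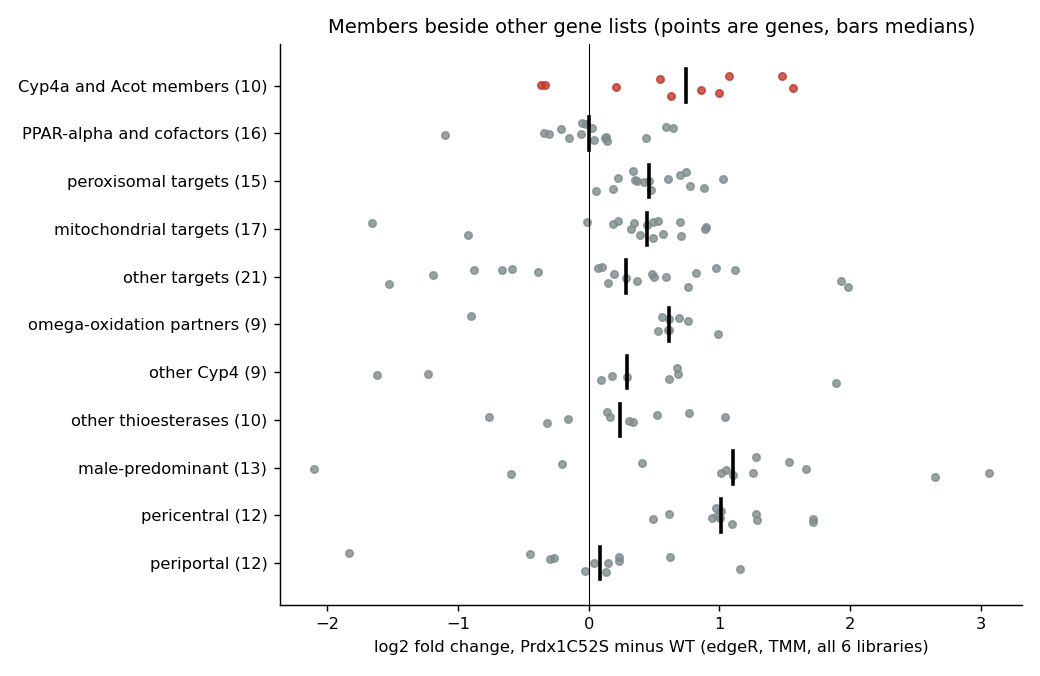
Log2 fold changes (horizontal axis, Prdx1C52S minus WT, edgeR with TMM scaling and all 6 libraries) of the members and of the genes tested in each list (rows, number of genes in brackets); points are genes and black bars medians. The members' median of 0.75 lies between those of the peroxisomal targets, 0.46, and of pericentral genes, 1.01, and all 15 peroxisomal targets lie to the right of 0.

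Enzymes that work with Cyp4a proteins did not share 1 direction. Of 9 tested, 8 were positive (median 0.61, or 0.41 without WT 8). At an unadjusted edgeR p under 0.05, 6 were higher, beside 11.5% of all genes, and 1 lower, beside 14.8%. Por, the reductase that passes electrons to microsomal P450 enzymes, was the negative one, at 55.7 ± 18.0 FPKM in Prdx1C52S and 125 ± 10.1 in WT (-0.90, edgeR adjusted p = 0.107). Adh4 and Adh7, alcohol dehydrogenases that can oxidise omega-hydroxy fatty acids, had log2 fold changes of 0.99 and 0.69. Cyp4a10 thus had its higher, and Por its lower, FPKM in the same 3 Prdx1C52S libraries. Over all genes tested, every Prdx1C52S library was above WT for 6.09% and below WT for 36.7%.

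Other members of both gene families gave mixed values. Of 9 other Cyp4 genes tested, 3 were higher and 2 lower at an unadjusted edgeR p under 0.05 (median 0.30, or 0.19 without WT 8). Of all genes, 11.5% were higher and 14.8% lower at that threshold. Cyp4f18, a gene of neutrophils and other leukocytes, was at 0.980 ± 0.0806 against 3.74 ± 0.827 FPKM (-1.62), Cyp4f16 had a log2 fold change of -1.23, and Cyp4f39, under 0.15 FPKM in every library, one of 1.89. Of 10 other thioesterase genes, 1 was higher and 1 lower at that threshold (median 0.24, or 0.16 without WT 8). These were Baat, the bile acid conjugating enzyme (0.77), and Acot9, a mitochondrial thioesterase (-0.76); Them4 followed at 0.31.

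Zonation and sex-biased genes were set beside the members because WT 8 and the Cyp4a12 pair differed in them. Of 12 pericentral genes, 12 were positive (median 1.01, or 0.70 without WT 8). At an unadjusted edgeR p under 0.05, 6 were higher, beside 11.5% of all genes. Among these were the Wnt targets Lgr5 (1.01) and Axin2 (0.62) and the aminotransferase gene Oat (1.71). The summed FPKM of the pericentral list was 3447 to 4313 in Prdx1C52S, 2890 and 2719 in WT 6 and WT 9 and 937 in WT 8. Of 12 periportal genes, 7 were positive (median 0.09, or 0.01 without WT 8), with Sds (-0.45), Hal (0.62) and Cdh1 (-1.83) at the smallest p. Of 13 male-predominant genes, 10 were positive (median 1.11, or 0.94 without WT 8), with Ugt2b38 (1.11) and Elovl3 (2.65) on the positive and Selenbp2 (-2.10) on the negative side. The summed FPKM of that list ran from 5901 to 8747 in Prdx1C52S and from 6724 to 11562 in WT, with overlap and the higher values in WT. Of 9 female-predominant genes tested, 4 were positive (median -0.67), whereas without WT 8 it was 7 of 12 tested with a median of 0.47. These medians cover different sets of genes, since more genes were tested without WT 8. Of the 9 genes tested with all libraries, Cyp3a44 alone changed sign without WT 8, from negative to positive. The medians therefore do not show that the list as a whole turned direction. In the fit with all libraries Cyp3a41b (-0.95), Cyp17a1 (-0.82) and Cyp2b13 (2.21) had the smallest p of that list. Whether these genes and the members share a cause was not tested.

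Promoter sequence was available from the RefSeq table (GRCm38.p6) for 5 members, Cyp4a32 and Acot1 to Acot4. It was searched for the element that PPAR-RXR pairs bind, AGGTCANAGGTCA, a repeat of AGGTCA with 1 base between, on both strands and with up to 2 mismatches in the 12 fixed bases. Of these members Acot4 alone held a match, on the minus strand from 13 bases to 1 base before the start, and 3.86% of the 32851 promoters in the table hold one. The 250 bases before the Acot4 start (chr12:84038129-84038378, plus strand) are shown because it held the match, which is in capitals. Family shares separated the groups for Acot4, but also for Acot1, Acot2 and Cyp4a32, which held no match.
Acot4: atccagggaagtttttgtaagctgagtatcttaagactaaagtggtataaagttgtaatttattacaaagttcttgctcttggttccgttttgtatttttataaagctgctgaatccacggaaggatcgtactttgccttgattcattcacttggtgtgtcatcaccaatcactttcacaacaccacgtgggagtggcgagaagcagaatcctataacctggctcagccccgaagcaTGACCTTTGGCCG

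A match of letters is a description and does not show that a receptor binds there. The other 4 promoters held no such letters within their 300 bases, which says nothing about sites elsewhere.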

How the data were processed

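Poly(A)-selected, dUTP-marked libraries with molecular identifiers were sequenced as pairs of 150-base reads, per the labels' protocols. The authors deposited FPKM values and estimated counts per gene, per the file headers. Tools listed in the submitters' processing notes, without roles, are StringTie 1.3.4d, UMI-tools, HISAT2 2.0.4, cutadapt 1.9, edgeR and DESeq2, and the build listed is mm9. Member coordinates equal those of GENCODE M21, so GRCm38 is used. Estimated counts, about 4 per fragment, look more precise than the reads behind them.

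Counts of 29734 genes were rounded and fitted whole with edgeR 4.0.16 (filterByExpr, TMM, robust quasi-likelihood F-tests, two-sided, Benjamini-Hochberg over 18931 genes, threshold 0.05). The code was tested on simulated data with less spread between libraries than here and with no library like WT 8. SE is the absolute log2 fold change over the square root of F. DESeq2 1.42.0, limma 3.58.1 (voom with quality weights, and trend on log2 FPKM plus a pseudocount of 1 or 0.1), other scalings and leaving out each library were alternatives. Shares used exact permutation tests. Named genes are all members, per list the 3 with the smallest p, and the 3 most like Cyp4a14, Cyp4a12a and Acot1, leaving out predicted models; Prdx1, WT 8 markers, Cpt1a and Ppara were added. Some genes that the rule names are left out here. Protein identity had been planned; coding sequence identity was used instead. Members and lists were chosen with earlier results of these data known.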

Additional observations from a re-analysis of the deposited data

How the results depend on the processing

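Members kept their direction in 146 of 149 values under 15 alternatives, and 0 of the 149 passed adjusted p 0.05 (smallest 0.0503); the other 3 are Cyp4a32, at -0.040 with library totals, -0.10 in voom and from -0.12 (without WT 8) to 0.59 with a library left out. DESeq2 gave no p for Cyp4a12a. Library totals in place of TMM moved the median of all genes from -0.03 to -0.34. Genes called higher and lower were 0 and 0 in edgeR, 35 and 125 with library totals, 105 and 91 without a filter, 1399 and 1723 in DESeq2, 1023 and 1006 in voom, 39 and 94 on log2(FPKM + 1), 59 and 221 on log2(FPKM + 0.1), 43 and 40 with counts divided by 4, and from 0 to 522 and from 0 to 375 when single libraries were left out (522 and 375 without WT 8, 63 and 69 without WT 9). Of 140 pathway genes, 31 and 11 were called in DESeq2 and from 0 to 22 and from 0 to 7 with a library left out, 22 and 7 without WT 8. The summed Cyp4a10, Cyp4a31 and Cyp4a32 passed in DESeq2 (1.44), and the summed Acot1 and Acot2, from -0.65 to -0.16 with a library left out, passed without WT 8. Differences of family share, in percentage points, turned sign with a library left out for Cyp4a14 (-0.69 without Prdx1C52S 1, range -4.91 to 8.03), Cyp4a12a (-13.3 to 6.14), the Cyp4a12 pair (-22.7 to 3.89, positive without WT 6) and Cyp4a31 (-0.47 to 0.11). The cause of these changes was not tested. The lowest member value, and so the one with least depth, was 0.546 FPKM (Acot3 in WT 8). No paired analysis was possible because the groups share no replicate number.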
